A study of Mus musculus with 15 samples.

Results

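The LIF receptor and STAT3 target genes described here are Lifr, Il6st, Osmr, Stat3, Socs3, Gbx2, Pim1, Pim3 and Bcl3. They were taken by symbol from the 24982 symbols counted in each library, and all 9 of 9 were present and abundant enough to be tested. The data are 15 RNA-seq libraries of polyadenylated RNA, in 5 groups of 3, from the mouse embryonic stem cell (ESC) line E14TG2 and from its transition to epiblast-like cells (EpiLCs), which resemble the early post-implantation epiblast. The groups are ESCs at day 0, Atg7 KO and control cells at day 2, and Atg7 KO and control cells at day 4; Atg7 encodes an enzyme needed for autophagosome formation. There was no Atg7 KO library at day 0, so the KO was compared with control cells at days 2 and 4 only. Per the labels, the routine ESC culture had inactivated mouse embryonic fibroblasts as feeders and 1000 U/ml LIF, 1 µM PD0325901, 3 µM CHIR99021 and 20% KSR. The transition medium, on fibronectin, was N2B27 with 20% KSR, activin A at 20 ng/ml and bFGF at 12 ng/ml, and no LIF is listed. LIF was thus withdrawn together with both inhibitors, the feeder cells and the substrate, and with activin A and bFGF added. A difference from ESCs cannot be told apart among these changes, nor from a difference in the source of the cells (see Hprt below). The labels do not say how the KO was made, whether it is 1 clone, or whether the 3 libraries of a group are separate cultures, so p-values measure the spread between these libraries.

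LIF binds the receptor LIFR, which pairs with the shared signalling subunit IL6ST, also called gp130. The kinases bound to this pair phosphorylate STAT3, which enters the nucleus and switches on genes that help mouse ESCs keep renewing themselves. SOCS3, itself a STAT3 target, binds the activated receptor and damps the signal, which makes it a common readout of the pathway.

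STAT dimers bind a palindromic motif, TTCNNNGAA, and Socs3 is the member whose promoter is shown because it alone among the 9 members held this motif in the window searched. The window ran from 250 bases before to 50 bases after each RefSeq start site on GRCm38.p6, and the motif reads the same on both strands. The Socs3 stretch is chr11:117969452-117969616, minus strand, with the motif in capitals 154 bases upstream of the start site:
Socs3: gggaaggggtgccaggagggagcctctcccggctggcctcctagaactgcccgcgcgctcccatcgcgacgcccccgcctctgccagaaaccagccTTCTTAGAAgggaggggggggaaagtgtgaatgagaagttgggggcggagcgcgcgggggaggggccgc
For comparison, matches in the promoters of 2 genes of the wider pathway list below are given with 10 flanking bases on each side, Icam1 (a cell adhesion molecule) on the plus strand of chromosome 9 and Bcl6 (a transcriptional repressor) on the minus strand of chromosome 16:
Icam1: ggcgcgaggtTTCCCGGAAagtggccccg
Bcl6: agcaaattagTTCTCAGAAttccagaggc
The start site used for Socs3 is the RefSeq one, at base 117969366; the GENCODE M21 gene begins further upstream, at 117970047, so the stretch lies within the GENCODE gene span, outside its exons. The Icam1 match lies 42 bases and the Bcl6 match shown 118 bases upstream of a start site. Bcl6 also had matches 168, 122 and 88 bases upstream of another start site, not shown here. The motif occurred in 8.3% of all 32851 windows and in at least 1 window of 9.55% of 27025 genes. It occurred in 1 of 9 members (11.1%) and in 6 of the 39 genes of the wider list that had a window (15.4%). These letters are a description of the windows and say nothing about binding in these cells.

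Library totals ran from 14059237 to 23371546 counts. Atg7 averaged 7.16 ± 0.349 CPM (counts scaled to a common library total) in KO cells and 13.6 ± 1.27 CPM in control cells at day 2, and 11.9 ± 1.28 CPM in KO cells and 19.5 ± 0.379 CPM in control cells at day 4 (SD, n = 3 each). The KO libraries were thus lower but not at 0, and which exons the KO removes is not stated in the labels. Hprt, which is defective in the E14TG2a line, averaged between 1.78 and 2.38 CPM in the 4 groups of the transition and 195 ± 11.2 CPM in ESCs, so day and source of the cells cannot be told apart in any comparison with ESCs. The summed level of 14 fibroblast markers was 2090, 1070 and 268 CPM in the 3 ESC libraries. It ran from 536 to 934 CPM in KO and from 307 to 354 CPM in control cells at day 2. At day 4 it ran from 166 to 233 CPM in KO and from 119 to 122 CPM in control cells. None of the 14 was at 0 in any library. Thy1 went against the sum, with means of 5.19 CPM in ESCs and 14.4 and 15.7 CPM in control cells at days 2 and 4. Pdgfrb had 17.4, 17.6 and 13.6 CPM and Twist2 1.03, 0.865 and 1.16 CPM in the same order. The other markers had higher means in ESCs than in control cells of either day. The summed level of 5 markers of pluripotent cells ran from 3750 to 4030 CPM in ESCs and was lowest, 1640 to 1670 CPM, in day 4 control cells, against 2210 to 2410 CPM in day 4 KO cells. Among them, Zfp42 went against the sum, at 130 ± 4.8 CPM in ESCs and 301 ± 12.4 CPM in day 4 control cells. Of 4 EpiLC markers, 3 had higher means in day 4 control cells than in ESCs, with Otx2 at 29 ± 6.44 CPM against 12.1 ± 1.86 CPM, Pou3f1 at 11.1 ± 3.25 CPM against 3.77 ± 1.31 CPM and Dnmt3b at 222 ± 6.92 CPM against 140 ± 60.3 CPM. The other, Fgf5, was near 0 in both, at 0.64 ± 0.308 CPM in day 4 control cells and 0.38 ± 0.171 CPM in ESCs. The summed level of 4 endoderm markers ran from 180 to 188 CPM in KO and from 121 to 131 CPM in control cells at day 4, and from 6.58 to 15 CPM in ESCs. At day 4, KO and control libraries overlapped for each of these markers except Gata6. ESC replicate 3, the one lowest in fibroblast markers, stood apart from the other ESC libraries: the chi-square per degree of freedom between their counts was 31.78 and 24.22, against 3.2 to 7.0 for every other pair within a group.

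Most of the 9 genes were lower in control cells of the transition than in ESCs. As Hprt showed, day and source of the cells cannot be told apart in the comparisons with ESCs. In control cells at day 2 against ESCs, 1 member rose, 6 fell and 2 did not pass the test, and their median log2 fold change was -0.63; of all 15696 genes tested, 35.6% rose and 34.9% fell. At day 4 against ESCs, 1 member rose, 7 fell and 1 did not pass, with a median of -0.73, against 36.2% higher and 35.6% lower over all genes. Between days 2 and 4 in control cells, 1 rose, 5 fell and 3 did not pass, with a median of -0.35, against 33.9% higher and 34.6% lower. Changes of either direction were thus common in the whole table, where the median log2 fold change lay between -0.01 and 0.02. A gene was called at an adjusted p under 0.05 in edgeR's quasi-likelihood test (Benjamini-Hochberg, all tested genes), and log2 fold changes carry their standard error. These are bulk libraries, so fewer cells of a type and less RNA per cell cannot be told apart.

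**Figure D1:**
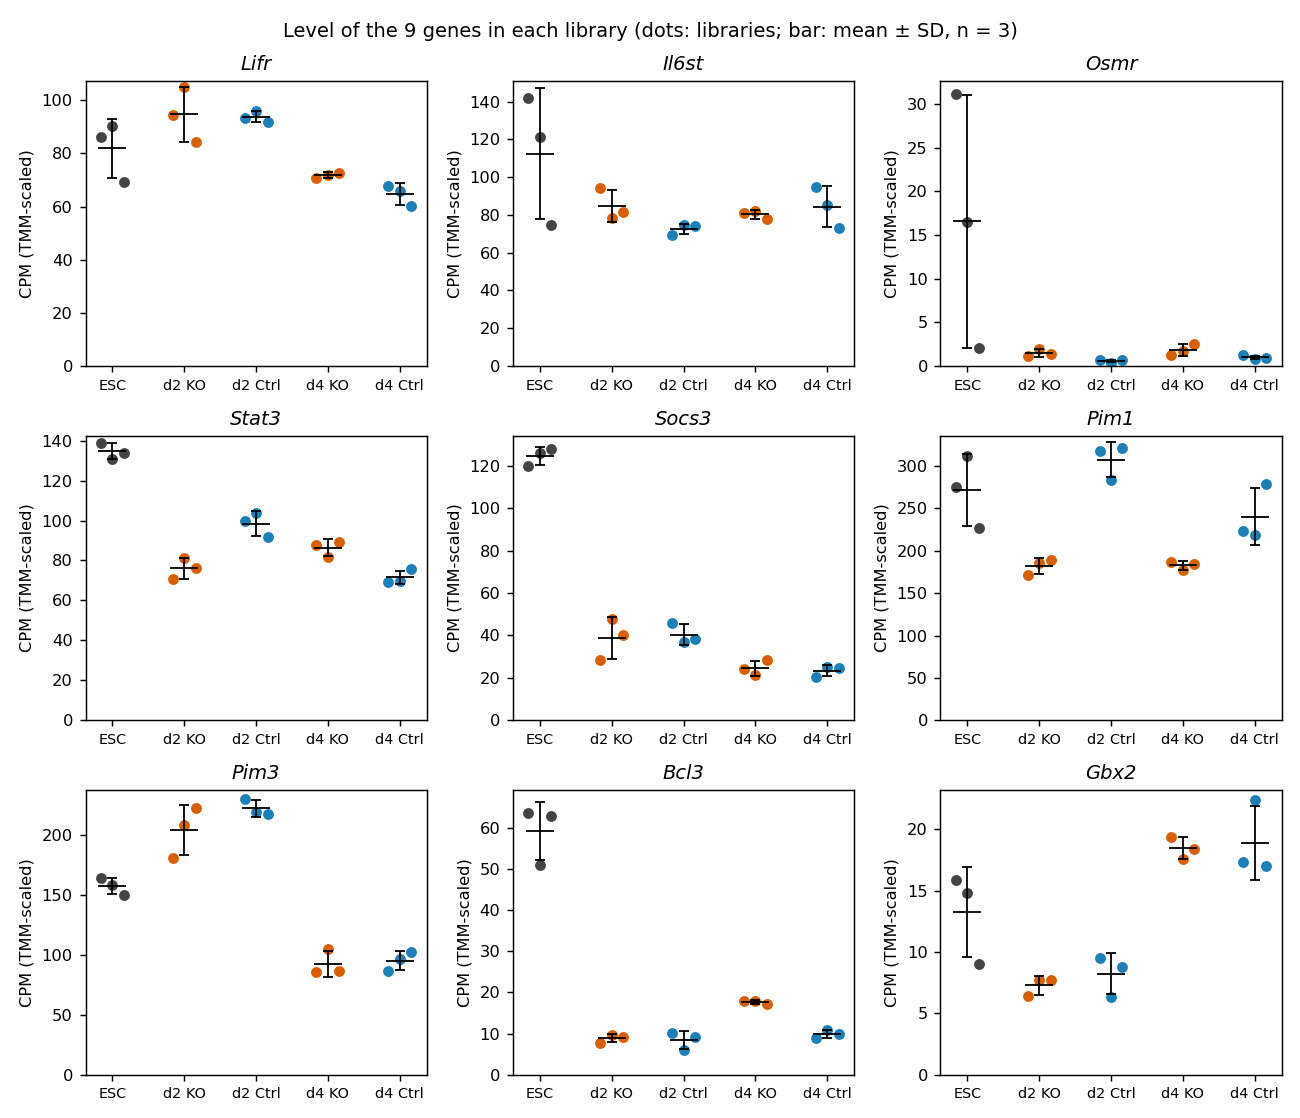
Level of each member in CPM, with library totals scaled by TMM, in each of the 15 libraries (points), with the mean and SD of each group of 3; groups run from ESC through day 2 KO and control to day 4 KO and control, and each panel has its own linear axis from 0. Socs3, Bcl3 and Stat3 were highest in the 3 ESC libraries, Osmr was spread from 2.04 to 31.1 CPM among them, and Pim1 was lower in KO than in control libraries at day 2.

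Among the receptor genes, Lifr had the smallest differences from ESCs. Lifr (chromosome 15, 7090614 to 7197489, plus strand, GENCODE M21 on GRCm38) encodes the LIF-specific receptor subunit. It had 86.2, 90.4 and 69.4 CPM in ESCs, 93.4, 96.1 and 92.0 CPM in control cells at day 2, and 67.9, 66.0 and 60.1 CPM in control cells at day 4. Day 2 overlapped no ESC library and lay above all 3, and day 4 lay below all 3, although the ESC library at 69.4 CPM came close. The log2 fold change was 0.19 ± 0.09 at day 2 against ESCs (edgeR adjusted p = 0.0634) and -0.34 ± 0.09 at day 4 against ESCs (edgeR adjusted p = 0.00298). Between days 2 and 4, Lifr fell by 0.54 ± 0.09 (edgeR adjusted p = 5.89e-05). With the fibroblast marker score as a covariate, the day 4 difference from ESCs was -0.10 and did not pass, while the day 2 difference was 0.30 and did. The day 2 difference also passed without ESC replicate 1 (0.23) or 2 (0.27), or without day 2 KO replicate 2 (0.20) or 3 (0.20).

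Il6st (chromosome 13, 112464070 to 112510086, plus strand), the signalling subunit shared by the IL-6 family, was 142, 121 and 74.5 CPM in ESCs, 69.6, 74.6 and 73.9 CPM in control cells at day 2, and 94.7, 85.2 and 72.9 CPM in control cells at day 4. The ESC library lowest in Il6st was also the one lowest in fibroblast markers, and its level lay among those of the control cells. Against ESCs, the log2 fold change of Il6st was -0.63 ± 0.16 at day 2 (edgeR adjusted p = 0.00211), and at day 4 it was -0.42 ± 0.16 (edgeR adjusted p = 0.0269). The day 4 call was lost without ESC replicate 1 (-0.21) or 2 (-0.36), or without day 4 control replicate 2 (-0.42) or 3 (-0.32), and with the fibroblast score as a covariate the difference was 0.11.

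Osmr (chromosome 15, 6813577 to 6874969, minus strand), the oncostatin M receptor subunit, is abundant in fibroblasts and was the least even of the members in ESCs, at 31.1, 16.5 and 2.04 CPM, from 463, 244 and 31 counts. It had 0.67, 0.378 and 0.648 CPM in control cells at day 2 and 1.2, 0.828 and 0.883 CPM in control cells at day 4, each from 8 to 20 counts. The 3 ESC libraries lay above every control library of the transition but differed more among themselves than the 2 days did. Osmr fell on both days, with log2 fold changes of -4.86 ± 0.70 on day 2 (edgeR adjusted p = 1.11e-05) and -4.07 ± 0.67 on day 4 (edgeR adjusted p = 4.14e-05). The day 2 difference was -4.02 without ESC replicate 1 and -3.10 with the fibroblast score as a covariate. At day 4 it was -3.24 without that replicate and -0.89 with the covariate, which no longer passed (edgeR adjusted p = 0.0536). Osmr and Il6st followed the order of the fibroblast marker sum over the 3 ESC libraries, but so did Gbx2, Pim3 and the EpiLC marker Dnmt3b (194, 152 and 74.8 CPM). ESC replicate 3 was also highest in Gata6, at 6.2 CPM, against 2.89 and 2.03 CPM in replicates 1 and 2. The fibroblast score, a mean log2 CPM of the markers, spread most among the ESC libraries, at 5.96, 4.86 and 2.81. As a covariate it can also take up other differences between these libraries, so it cannot measure a feeder part. With it, Osmr differed by 2.22 between day 4 and day 2 in control cells, against 0.79 without it. The part of feeder cells in the levels of Osmr and Il6st was not tested. The part of other differences between the ESC libraries was not tested.

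**Figure D2:**
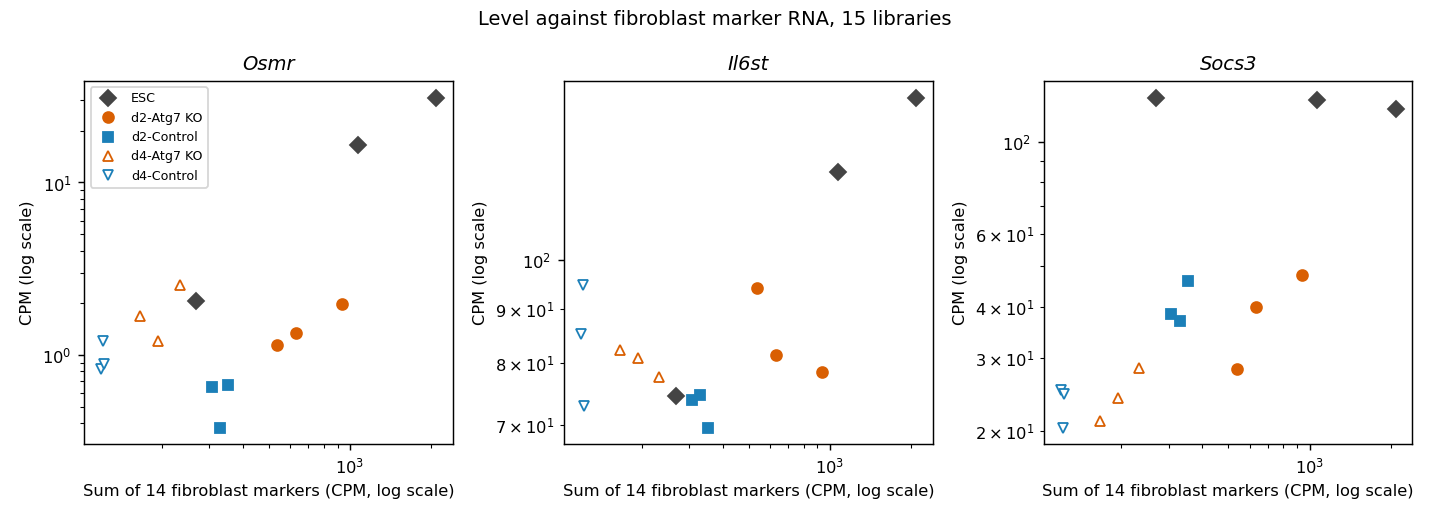
CPM of Osmr, Il6st and Socs3 in each of the 15 libraries against the summed CPM of 14 fibroblast markers, both on log axes, with 1 point per library coloured by group. In the 3 ESC libraries, Osmr and Il6st are ordered as the marker sum of 2090, 1070 and 268 CPM, while Socs3 stays between 120 and 128 CPM.

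Stat3 (chromosome 11, 100885098 to 100939540, minus strand), the transcription factor that carries the signal, was 139, 131 and 134 CPM in ESCs, 99.7, 104 and 91.7 CPM in control cells at day 2, and 69.3, 69.7 and 75.5 CPM in control cells at day 4. No libraries of these 3 groups overlapped, and the level was lower at each later day. Stat3 fell on both days against ESCs, with log2 fold changes of -0.45 ± 0.07 on day 2 (edgeR adjusted p = 1.18e-05) and -0.91 ± 0.07 on day 4 (edgeR adjusted p = 2.98e-09). From day 2 to day 4 the difference was -0.46 ± 0.07 (edgeR adjusted p = 1.07e-05). The last bases of Stat3 overlap Stat5a on the other strand, and the labels do not state whether the counting used strand.

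Socs3 (chromosome 11, 117966079 to 117970047, minus strand), the feedback inhibitor, was 120, 126 and 128 CPM in ESCs, 46.0, 37.0 and 38.3 CPM in control cells at day 2, and 20.4, 25.1 and 24.6 CPM in control cells at day 4. The 3 groups were well apart, and the ESC libraries were close to each other despite their unequal fibroblast marker sums. Socs3 fell on both days against ESCs, with log2 fold changes of -1.63 ± 0.15 on day 2 (edgeR adjusted p = 5.4e-08) and -2.42 ± 0.15 on day 4 (edgeR adjusted p = 6.35e-10), and the day 4 difference from day 2 was -0.79 ± 0.15 (edgeR adjusted p = 0.000251). With the fibroblast score as a covariate the differences from ESCs were -1.58 at day 2 and -2.31 at day 4.

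Bcl3 (chromosome 7, 19808462 to 19822770, minus strand), an IkB-family nuclear cofactor and STAT3 target in mouse ESCs, showed the largest fall of the 9 members after Osmr. It had 63.5, 51.0 and 62.8 CPM in ESCs, 10.2, 6.0 and 9.12 CPM in control cells at day 2, and 8.90, 10.8 and 9.84 CPM in control cells at day 4. Every ESC library was above every control library, while days 2 and 4 overlapped. Bcl3 fell on both days against ESCs, with log2 fold changes of -2.81 ± 0.15 on day 2 (edgeR adjusted p = 1.38e-10) and -2.59 ± 0.15 on day 4 (edgeR adjusted p = 2.4e-10). The day 4 difference from day 2 was 0.22 ± 0.16 and did not pass (edgeR adjusted p = 0.232).

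The homeobox gene Gbx2 (chromosome 1, 89927956 to 89931179, minus strand), another STAT3 target in mouse ESCs, was low at day 2 and higher at day 4. It had 15.9, 14.8 and 9.04 CPM in ESCs, 9.54, 6.33 and 8.82 CPM in control cells at day 2, and 17.3, 22.4 and 17.0 CPM in control cells at day 4. The lowest ESC library overlapped the day 2 libraries, and all 3 day 4 libraries lay above both other groups. Gbx2 fell by 0.69 ± 0.19 at day 2 against ESCs (edgeR adjusted p = 0.00466), then differed by 1.20 ± 0.19 between day 4 and day 2 (edgeR adjusted p = 3.22e-05). The difference of 0.51 ± 0.19 at day 4 against ESCs (edgeR adjusted p = 0.0216) was lost without ESC replicate 3 (0.30) or day 4 control replicate 2 (0.38), and was 1.09 with the fibroblast score as a covariate.

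The kinase genes Pim1 and Pim3 encode survival-promoting serine/threonine kinases and are STAT3 targets, and they did not move together. Pim3 (chromosome 15, 88862186 to 88865726, plus strand) had 164, 158 and 150 CPM in ESCs, 230, 219 and 217 CPM in control cells at day 2, and 86.5, 96.9 and 102 CPM in control cells at day 4. The day 2 libraries were above and the day 4 libraries below all ESC libraries. Pim3 rose by 0.49 ± 0.09 at day 2 (edgeR adjusted p = 7.37e-05), was the one member called higher there, and fell by 1.22 ± 0.09 between days 2 and 4 (edgeR adjusted p = 3.8e-09). At day 4 against ESCs the difference was -0.73 ± 0.09 (edgeR adjusted p = 1.29e-06).

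Pim1 (chromosome 17, 29490753 to 29496112, plus strand) had 275, 312 and 227 CPM in ESCs, 318, 284 and 321 CPM in control cells at day 2, and 223, 219 and 279 CPM in control cells at day 4. The ESC libraries overlapped both later groups. Its differences from ESCs were 0.18 ± 0.10 at day 2 (edgeR adjusted p = 0.12) and -0.17 ± 0.10 at day 4 (edgeR adjusted p = 0.139), and it fell by 0.35 ± 0.10 between days 2 and 4 (edgeR adjusted p = 0.00551). The day 2 difference passed without ESC replicate 2 (0.29, edgeR adjusted p = 0.0184) and with the fibroblast score as a covariate (0.29, edgeR adjusted p = 0.00607). The day 4 difference passed without ESC replicate 3 (-0.28) or day 4 control replicate 3 (-0.29), and was 0.07 with the covariate. Pim1, Gbx2 and Bcl3 are each overlapped by predicted genes on the other strand, so their counts could hold reads of those genes.

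**Figure D3:**
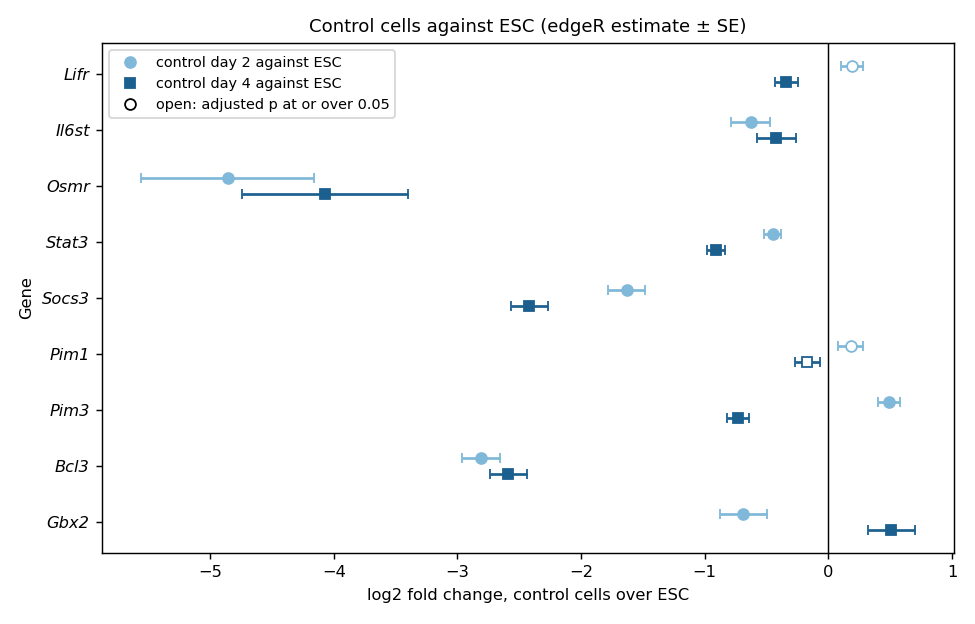
Log2 fold change, with its standard error, of control cells at day 2 and at day 4 against ESCs for the 9 members; filled points passed edgeR's test at an adjusted p of 0.05 and open points did not. Osmr, Bcl3 and Socs3 are furthest below 0 on both days, and Pim3 is above 0 at day 2 and below it at day 4.

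Per length of the exon union, the members also differed in level. In ESCs, Pim1 was highest at 80.6 CPM per kb, followed by Pim3 at 64.9, Socs3 at 43.1, Bcl3 at 23.9 and Stat3 at 14.1 CPM per kb. The receptor subunits were lower, at 10.1 for Il6st, 7.61 for Lifr and 1.37 CPM per kb for Osmr, and Gbx2 was at 6.08 CPM per kb. In day 4 control cells, Pim1 was still highest at 71.5 CPM per kb, whereas Bcl3 was at 3.97 and Socs3 at 8.07 CPM per kb, near Stat3 at 7.51 and Il6st at 7.59 CPM per kb.

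In Atg7 KO against control cells at day 2, 2 members fell, Stat3 and Pim1, and 7 did not pass. No member rose in edgeR's fit of all 15 libraries, at an unadjusted p under 0.05 in that fit or in DESeq2. Il6st and Osmr were called higher with the compared groups alone in the fit, without ESC replicate 3, or with 13 libraries (without that library and day 2 KO replicate 2). Over all genes 20.4% rose and 21.4% fell in this comparison, so the 2 of 9 called lower is near the background. The median over the members was -0.06. At day 4, 2 members rose, Stat3 and Bcl3, 1 fell, Pim1, and 6 did not pass, with a median of 0.07, against 19.5% higher and 18.1% lower over all genes.

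**Figure D4:**
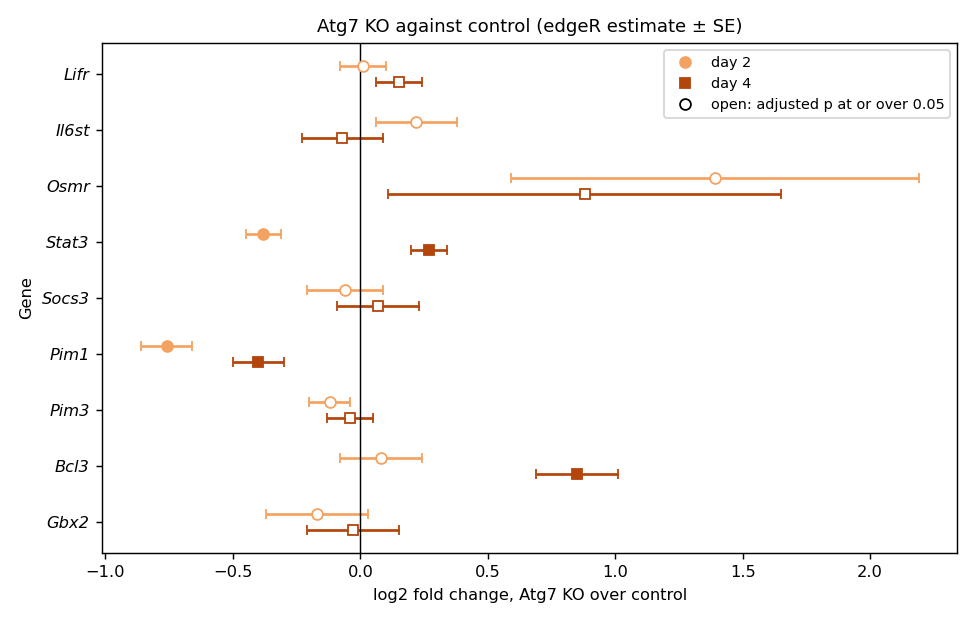
Log2 fold change, with its standard error, of Atg7 KO over control cells at day 2 and at day 4 for the 9 members; filled points passed edgeR's test at an adjusted p of 0.05. Pim1 is below 0 on both days, Stat3 is below 0 at day 2 and above 0 at day 4, and Bcl3 is near 0 at day 2 and at 0.85 at day 4.

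Stat3 went in opposite directions on the 2 days. At day 2 it had 70.7, 81.0 and 76.3 CPM in KO cells, against 99.7, 104 and 91.7 CPM in control cells. At day 4 it had 87.9, 81.5 and 89.5 CPM in KO cells, against 69.3, 69.7 and 75.5 CPM in control cells. KO and control libraries did not overlap on either day. Stat3 fell by 0.38 ± 0.07 in the KO at day 2 (edgeR adjusted p = 0.000284) and rose by 0.27 ± 0.07 at day 4 (edgeR adjusted p = 0.00437). The difference between the 2 effects, day 4 minus day 2, was 0.65 ± 0.09 (edgeR adjusted p = 6.98e-05).

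Bcl3 differed at day 4. It had 7.83, 9.78 and 9.08 CPM in KO cells, against 10.2, 6.0 and 9.12 CPM in control cells, at day 2. It had 17.9, 17.9 and 17.2 CPM in KO cells, against 8.90, 10.8 and 9.84 CPM in control cells, at day 4. The libraries overlapped at day 2, whereas at day 4 every KO library was above every control library and below every ESC library. Bcl3 rose by 0.85 ± 0.16 in the KO at day 4 (1.8-fold, edgeR adjusted p = 0.000487), against 0.08 ± 0.16 at day 2 (edgeR adjusted p = 0.704). The day 4 effect exceeded the day 2 effect by 0.76 ± 0.22 (edgeR adjusted p = 0.0136). Bcl3 was also higher by 0.98 ± 0.15 in KO cells at day 4 than in KO cells at day 2 (edgeR adjusted p = 3.36e-05).

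Pim1 was lower in the KO on both days. It had 171, 186 and 189 CPM in KO cells, against 318, 284 and 321 CPM in control cells, at day 2. It had 187, 177 and 185 CPM in KO cells, against 223, 219 and 279 CPM in control cells, at day 4. No KO library reached a control library on either day, and the KO levels were alike on the 2 days. Pim1 fell on both days, with log2 fold changes of -0.76 ± 0.10 on day 2 (edgeR adjusted p = 2.85e-05) and -0.40 ± 0.10 on day 4 (edgeR adjusted p = 0.00597). The difference between the 2 effects, 0.36 ± 0.14, did not pass (edgeR adjusted p = 0.0615), and it was between 0.34 and 0.48 where it passed. It passed without ESC replicate 3 (edgeR adjusted p = 0.00715) or 2, day 2 control replicate 2 or day 4 control replicate 3, with the covariate (edgeR adjusted p = 0.0116), with the compared groups alone (edgeR adjusted p = 0.0092), with 13 libraries (edgeR adjusted p = 0.0112) and with no filter (edgeR adjusted p = 0.046).

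The receptor genes did not pass in the KO comparisons with all 15 libraries in the fit, and the calls of Lifr, Il6st and Osmr changed with the libraries used. Lifr had 94.6, 105 and 84.4 CPM in KO cells at day 2 and 70.6, 72.0 and 72.7 CPM in KO cells at day 4, with log2 fold changes over control cells of 0.01 ± 0.09 (edgeR adjusted p = 0.92) and 0.15 ± 0.09 (edgeR adjusted p = 0.213). Il6st had 94.1, 78.5 and 81.4 CPM in KO cells at day 2 and 80.9, 82.3 and 77.6 CPM in KO cells at day 4, with differences of 0.22 ± 0.16 (edgeR adjusted p = 0.283) and -0.07 ± 0.16 (edgeR adjusted p = 0.766). Lifr overlapped control libraries at day 2 only, and Il6st lay above all control libraries at day 2 and among them at day 4. With 13 libraries, Lifr was called higher in the KO at day 4 (0.15, edgeR adjusted p = 0.0432). The difference between the KO effects on Lifr, day 4 minus day 2, was also called in that fit (0.22, edgeR adjusted p = 0.047). The day 2 difference of Il6st was called with the compared groups alone (0.23, edgeR adjusted p = 0.00371), without ESC replicate 3 (0.22, edgeR adjusted p = 0.027) and with 13 libraries (0.27, edgeR adjusted p = 0.014), and with the fibroblast covariate it was 0.00 (edgeR adjusted p = 0.985). Osmr had 1.14, 1.96 and 1.33 CPM in KO cells, against 0.67, 0.378 and 0.648 CPM in control cells, at day 2. At day 4 it had 1.21, 1.67 and 2.54 CPM in KO cells, against 1.2, 0.828 and 0.883 CPM in control cells. All KO libraries were above all control libraries on both days, as was the fibroblast marker sum. The part of feeder cells was not tested, since the covariate cannot measure it. The Osmr gap at day 4 was narrow, at 1.21 against 1.2 CPM. Thy1, Pdgfrb, Postn and Lox had lower means in KO than in control cells at day 4, and the other fibroblast markers had higher means. Osmr's differences were 1.39 ± 0.80 at day 2 (edgeR adjusted p = 0.174) and 0.88 ± 0.77 at day 4 (edgeR adjusted p = 0.396). With the compared groups alone in the fit, leaving out the uneven ESC libraries, Osmr was called at day 2 (1.41, edgeR adjusted p = 0.00182) and at day 4 (0.87, edgeR adjusted p = 0.0392), and the day 2 difference was also called without ESC replicate 3 (1.39, edgeR adjusted p = 0.00444). With the fibroblast covariate its differences were 0.15 at day 2 (edgeR adjusted p = 0.734) and -0.23 at day 4 (edgeR adjusted p = 0.6).

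Socs3 had 28.3, 47.8 and 40.0 CPM in KO cells, against 46.0, 37.0 and 38.3 CPM in control cells, at day 2, and 24.0, 21.2 and 28.4 CPM in KO cells, against 20.4, 25.1 and 24.6 CPM in control cells, at day 4. The groups overlapped on both days, with differences of -0.06 ± 0.15 (edgeR adjusted p = 0.78) and 0.07 ± 0.16 (edgeR adjusted p = 0.761). Gbx2 had 6.39, 7.7 and 7.76 CPM at day 2 and 19.4, 17.6 and 18.4 CPM at day 4 in KO cells, and overlapped control cells on both days, with differences of -0.17 ± 0.20 (edgeR adjusted p = 0.51) and -0.03 ± 0.18 (edgeR adjusted p = 0.912). With the fibroblast covariate, Gbx2 was called lower in the KO at day 2 (-0.42, edgeR adjusted p = 0.0401). Pim3 had 181, 208 and 222 CPM at day 2 and 85.9, 105 and 86.6 CPM at day 4 in KO cells, and also overlapped control cells, with differences of -0.12 ± 0.08 (edgeR adjusted p = 0.264) and -0.04 ± 0.09 (edgeR adjusted p = 0.768). A difference that did not pass does not show that KO and control cells were alike for these genes.

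The course within KO cells was given by day 4 against day 2, where 3 members rose, 3 fell and 3 did not pass, with a median of 0.01, against 31.2% higher and 32% lower over all genes. Gbx2 (1.34 ± 0.19), Bcl3 (0.98 ± 0.15) and Stat3 (0.18 ± 0.07) rose, and Pim3 (-1.14 ± 0.09), Socs3 (-0.66 ± 0.15) and Lifr (-0.40 ± 0.09) fell. Stat3 was near the threshold (edgeR adjusted p = 0.023) and was lost without day 2 KO replicate 1 or 3, or day 4 KO replicate 1 or 3. In the test of the difference between the KO effects on the 2 days, 2 members had a higher effect at day 4, Stat3 and Bcl3, and 7 did not pass, against 18.6% higher and 17.6% lower over all genes. The difference for Il6st, -0.29 ± 0.22, did not pass (edgeR adjusted p = 0.343), but did with the compared groups alone (-0.31, edgeR adjusted p = 0.0234) and without ESC replicate 3 (-0.29, edgeR adjusted p = 0.0447).

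The wider JAK-STAT list held 56 genes chosen by role, of which 54 were tested. In control cells against ESCs, 16 rose and 24 fell at day 2, and 14 rose and 19 fell at day 4. Jak2, a receptor-bound kinase, rose by 1.56 at day 4, at 44.7 ± 0.715 CPM in control cells and 15.2 ± 0.801 CPM in ESCs. Jak1, the main kinase of gp130 signalling, rose by 0.54 at day 2, at 161 ± 7.16 CPM in control cells and 110 ± 5.79 CPM in ESCs. Jak3 went the other way, with means of 62.1 CPM in ESCs and 18.6 and 17.7 CPM in control cells at days 2 and 4. Klf4 and Tfcp2l1, pluripotency transcription factors downstream of STAT3, fell at day 2, with log2 fold changes of -2.27 ± 0.10 for Klf4 and -1.81 ± 0.08 for Tfcp2l1. Other STAT3-responsive genes had higher means at day 2 than in ESCs. Pramel7 was at 32.8 ± 2.66 CPM against 9.97 ± 1.62 CPM, and Mcl1 at 761 ± 18.8 CPM against 411 ± 46.9 CPM. Of 19 tested STAT3-responsive genes outside the 9 members, 4 rose and 11 fell at day 2 against ESCs, and 5 rose and 7 fell at day 4, where 35.6% and 36.2% of all genes rose and 34.9% and 35.6% fell at days 2 and 4.

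In KO against control cells, 13 of the 54 list genes rose and 12 fell at day 2, and 12 rose and 14 fell at day 4, close to the shares of all genes (20.4% higher and 21.4% lower at day 2, 19.5% higher and 18.1% lower at day 4). Of the 19 STAT3-responsive genes among them, 5 rose and 6 fell at day 2, and 6 rose and 6 fell at day 4. Genes of chromosome 18 tended to be higher in the KO at day 2. Their median difference was 0.56 (401 genes), against -0.10 (X) to 0.09 (chromosome 6) on the others. It was 0.01 at day 4, and -0.59 for day 4 minus day 2. Such shifts were not limited to the KO comparisons. In control cells the chromosome 18 median was -0.14 at day 2 against ESCs and 0.35 at day 4 against day 2. Chromosome 6, which holds Atg7 and Nanog, had a median of 0.39 at day 4 against day 2 in control cells. Pias2, Ptpn2 and Socs6 of the list lie on chromosome 18, as do the markers Pdgfrb, Lox and Gata6. No member lies on either chromosome. Pias2, Ptpn2 and Socs6 had higher means in KO than in control cells at day 2. The part of these shifts in the list counts and marker levels was not tested. Lif itself rose in the KO at day 2, at 9.44 ± 1.41 CPM in KO cells and 6.17 ± 0.439 CPM in control cells (0.61 ± 0.15, edgeR adjusted p = 0.0036). Jak2 fell on both days, with differences of -0.40 ± 0.07 at day 2 (edgeR adjusted p = 0.000212) and -0.46 ± 0.07 at day 4. At day 4, Klf4 averaged 92.7 ± 12.8 CPM in KO cells and 43 ± 2.54 CPM in control cells (1.11 ± 0.11, edgeR adjusted p = 1.29e-06), and Tfcp2l1 averaged 296 ± 29.2 CPM in KO cells and 167 ± 7.34 CPM in control cells (0.82 ± 0.08, edgeR adjusted p = 8.93e-07). Mcl1, which encodes an anti-apoptotic protein, fell at day 4 by 0.71 ± 0.07 (edgeR adjusted p = 9.54e-07), at 400 ± 14 CPM in KO cells and 652 ± 32.1 CPM in control cells. At day 4 the pluripotent and the endoderm marker sums were both higher in KO than in control libraries. The endoderm difference lay in Gata6, an endoderm transcription factor, which averaged 142 ± 2.93 CPM in KO and 83.7 ± 2.16 CPM in control cells. KO and control libraries overlapped for Gata4 (means 33.9 and 32.4 CPM), Sox17 (6.21 and 6.69 CPM) and Foxa2 (3.04 and 2.61 CPM). The part of these marker differences in the levels of Bcl3, Klf4 and Tfcp2l1 was not tested.

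Over the 15 libraries, which share their groups, the genes most alike in log2 CPM among 10874 searched were Esrrb for Bcl3 (Pearson r = 0.98, Spearman rho = 0.90), Fkbp5 for Stat3 (r = 0.99, rho = 0.97) and Dimt1 for Lifr (r = 0.96, rho = 0.92). For Osmr they were Efemp1 (r = 0.97, rho = 0.87) and Cdh11 (r = 0.96, rho = 0.97), and for Pim1 it was Gdap2 (r = 0.94, rho = 0.95). Among the members, Stat3 and Socs3 were alike (r = 0.89), as were Il6st and Osmr (r = 0.86) and Lifr and Pim3 (r = 0.85), while Gbx2 and Pim3 ran opposite (r = -0.87). These correlations describe 5 groups rather than 15 independent points.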

How the data were processed

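The authors deposited 1 table of unnormalized read counts by gene symbol for each library, and these counts were the starting point. The builds mm10 and GRCm38 and the tools STAR, StringTie, featureCounts and DESeq2 are named, per the submitters' processing notes. Tool versions, annotation, strandedness and the handling of shared reads are not stated there. Groups and replicate numbers came from the sample titles. The 9 members and all gene lists were chosen with earlier results of these data known.

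Counts were tested with edgeR 4.0.16 (R 4.3.3; quasi-likelihood, TMM) in 1 fit of all 15 libraries with a mean per group. The filterByExpr filter (minimum count 10, minimum total 15) kept 15696 genes and left out 9286. P-values were adjusted by Benjamini-Hochberg over all genes tested, and genes under 0.05 were called whatever their fold. Levels are CPM on TMM-scaled totals. The script was tested on simulated data. Named list genes were, per comparison, up to 3 risen and 3 fallen with the smallest p, and fixed genes such as Lif, Jak1, Jak2, Klf4 and Tfcp2l1; some genes under this rule are not reported here. For each member, the 3 genes with the highest r were sought, leaving out predicted genes. Alternatives were DESeq2 1.42.0, other scalings and filters, a 1.5-fold test, a fibroblast covariate, smaller sets of libraries, a replicate block and leaving out each library. Coordinates and exon lengths are from GENCODE M21, promoters from RefSeq.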

Additional observations from a re-analysis of the deposited data

Results flagged for a closer look

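The effect of the Atg7 KO differed between the 2 days for 2 members, by a test of the difference itself; in that test 18.6% of all genes had a higher and 17.6% a lower effect at day 4, so 2 of 9 is near the background. For Stat3 the difference, day 4 minus day 2, was 0.65 on the log2 scale, with KO below control libraries at day 2 and above them at day 4. For Bcl3 it was 0.76, with overlapping libraries at day 2 and KO above control libraries at day 4. With 3 libraries a group, no test of a single library's value was run; ESC replicate 3 stood apart from the other ESC libraries in the counts of all genes.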

How the results depend on the processing

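Of the single-member results under all alternatives, 1459 kept direction and side of the threshold, 42 gained a call, 39 lost one and 28 changed sign; DESeq2 and its size factors changed none. Members called were fewer against a 1.5-fold change, in the order of day 2 against ESC 3 (7 without it), day 4 against day 2 in control cells 2 (6), day 4 against ESC 5 (8), KO at day 2 0 (2), KO at day 4 0 (3), KO day 4 against day 2 3 (6) and the difference between days 0 (2). At an unadjusted p under 0.05 edgeR's 1.5-fold test gave 1 member for the KO on each day and 0 for the difference, where DESeq2 without a fold minimum called 2, 3 and 2. The fibroblast covariate left 5 of 8 for day 4 against ESC. Fits of the compared groups alone called 4 for the KO at day 2 and 4 for the difference, and lost Il6st (-0.41, edgeR adjusted p = 0.123) and Gbx2 (0.52, edgeR adjusted p = 0.067) at day 4 against ESC; fits of 13 libraries, without ESC replicate 3 and day 2 KO replicate 2, called 4 and 5. Leaving out 1 library gave 2 to 4 for both, with 4 for each without ESC replicate 3.

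Signs changed with the covariate for Il6st (0.11) and Pim1 (0.07) at day 4 against ESC, Lifr in the KO at day 2 (-0.10), Osmr in the KO at day 4 (-0.23) and Il6st between the KO days (0.21); with 13 libraries for Lifr in the KO at day 2 (-0.07); and for Pim1 between the KO days with no filter (-0.02) and a stricter filter (-0.01). Leaving out 1 library moved the KO effect at day 2 between -0.07 and 0.09 for Lifr, -0.24 and 0.12 for Socs3, and -0.11 and 0.23 for Bcl3. At day 4 it moved between -0.16 and 0.03 for Il6st, -0.04 and 0.17 for Socs3, -0.10 and 0.11 for Gbx2, and -0.14 and 0.02 for Pim3. Between the KO days it moved between -0.13 and 0.00 for Il6st, -0.04 and 0.53 for Osmr, and -0.04 and 0.03 for Pim1, and the difference between days between -0.05 and 0.31 for Socs3 and -0.01 and 0.15 for Pim3. The causes were not tested.

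Deviations from the group mean correlated by -0.10 to 0.08 between libraries of the same number in different groups. Libraries of different numbers were not compared in this way, so these values do not show whether the numbers mark shared cultures. With the replicate block, Lifr at day 2 against ESC was called (0.20, edgeR adjusted p = 0.0251), which made 8 members there instead of 7, and no other member's call changed.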
